A study of Mus musculus with 20 samples.

Results

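The comparison described here is mechanical loading in vehicle-treated mice, that is, the loaded left tibiae (n = 5) against the unloaded right tibiae (n = 5) of animals that received no glucocorticoid. These 10 libraries were taken from the 20 tibia RNA-seq libraries of the study. They were taken by their labels, except for 1 library in each group that was placed by its name in the deposited counts. The mice were 3-month-old male C57BL/6J animals, and those used here were given distilled water s.c. as the vehicle on 5 days. Axial compression was applied to the left tibia with a trapezoidal waveform at -13 N for 40 cycles per session, each held for 0.1 seconds and followed by 10 seconds of rest. The sample labels place the sessions on days 1 and 3. For these tibiae the study describes loading 3 times a week, with the final loading on day 5. The number of sessions is therefore not settled here. The other 10 libraries came from loaded and unloaded tibiae of mice given dexamethasone (DEX, a synthetic glucocorticoid) at 1 mg/kg, and they enter the test of whether the loading response differed between treatments and 1 alternative fit with all groups in the same model. The loaded limb was thus compared with the opposite limb of mice that all bore load on the left side, and no mouse without loading was included.

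Each library was made from a frozen tibia that was crushed before RNA extraction. The study also calls this material cortical bone including the periosteum, so how much of the tibia was used is not settled here. Genes of bone, cartilage, periosteum, marrow and muscle were all measured in these libraries. In such bulk tissue, fewer cells of a type and less RNA per cell cannot be told apart. CPM here means counts scaled for library size with TMM factors over these 10 libraries, and values for single libraries are listed in the order replicate 1, 2, 4, 5 and the library without a matched number. Library totals ran from 8835971 to 11475108 counts in unloaded tibiae (median 9644480) and from 8157276 to 13032018 in loaded tibiae (median 10980414). Markers of mature bone were abundant in every library, as Dmp1, an osteocyte matrix gene, measured at least 491 CPM and Bglap, the osteocalcin gene of osteoblasts, at least 216 CPM. Olfactory and vomeronasal receptor genes, which bone should not express and which track background reads, summed to 338 to 1238 CPM in unloaded and 228 to 885 CPM in loaded tibiae. Their medians were 765 CPM unloaded and 277 CPM loaded, and the median number of genes with a count was 33087 unloaded and 29766 loaded. The part of this background in the results was not tested.

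Bone is rebuilt by osteoclasts, which dissolve mineral with acid and proteases, and by osteoblasts, which lay down collagen and then mineralize it. Osteocytes, former osteoblasts embedded in the matrix, sense strain and signal to both cell types. The periosteum on the outer surface holds progenitors that can form bone, fibrous tissue or, when strongly stimulated, cartilage.

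Over 17982 genes tested, no gene passed an adjusted p of 0.05 with edgeR (0% called), and the lowest adjusted p was 0.078, for Slc9b2. At an unadjusted p under 0.05 there were 1773 genes (9.86%), of which 702 were higher (3.90%) and 1071 lower (5.96%) with loading. This count was 1170 without the unnumbered loaded library, 2677 without loaded replicate 5 and 3002 without the unnumbered unloaded library. The DESeq2 Wald test, the method named by the study, called 126 of 19514 genes (0.646%), 55 higher (0.282%) and 71 lower (0.364%). Below, its adjusted p is printed only for genes that it called. Among other genes described, it did not call Fosl2, Acp5, Csf1r, Col14a1, Tnfrsf11b and Zbtb16 (DESeq2 adjusted p from 0.0812 to 0.229). For 247 genes (1.37%) the groups did not overlap, meaning that every loaded library lay on the same side of every unloaded one, with 121 genes higher (0.673%) and 126 lower (0.701%). Scaled to raw library totals instead of TMM, this count was 342, of which 268 were higher. Because no gene passed the edgeR threshold, genes are described below as higher or lower in the loaded group, many with their adjusted p. A log2FC printed without an adjusted p belongs to a gene that did not pass in this fit either. A marker list is described by its counts and its median log2FC beside those of all genes tested, whose median log2FC was -0.002. List counts at an unadjusted p under 0.05 are to be read beside the shares of all genes, 3.90% higher and 5.96% lower.

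**Figure D1:**
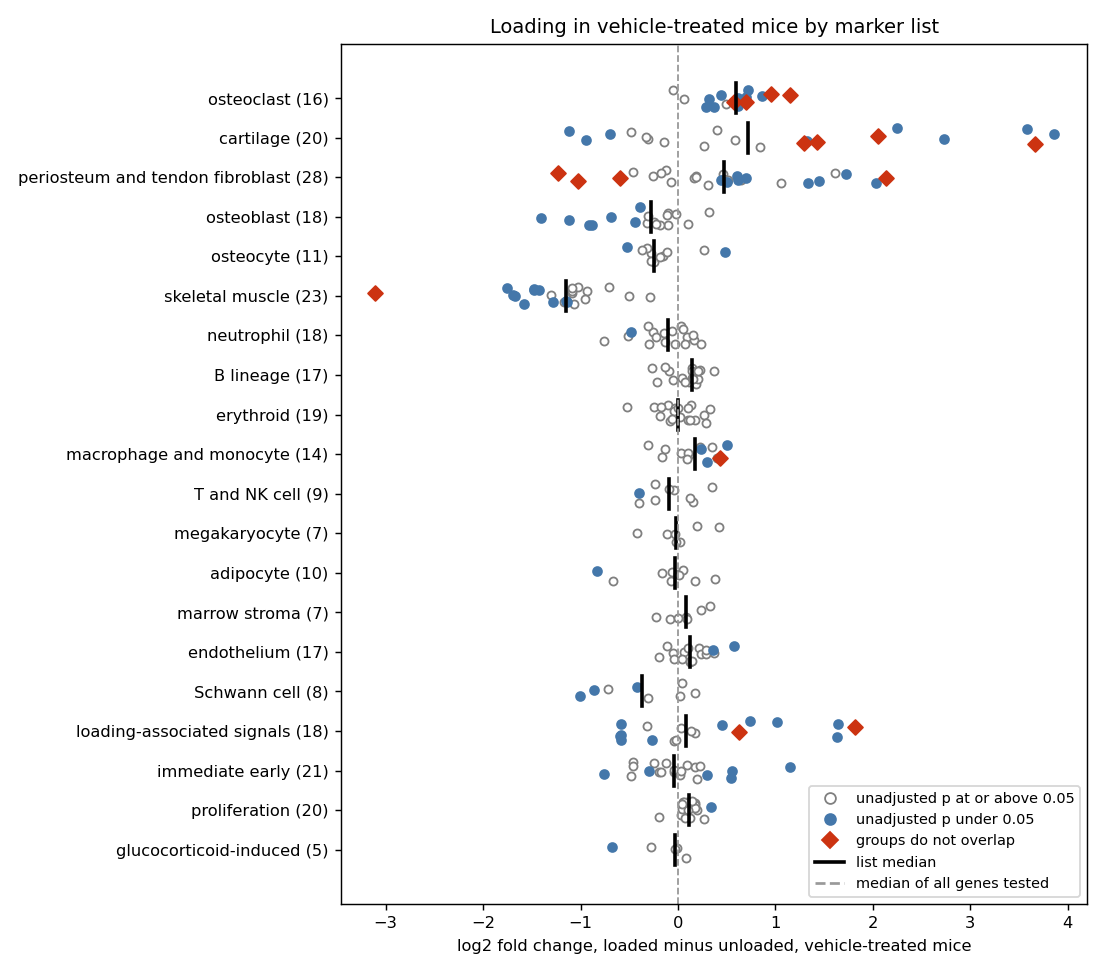
Log2 fold change with loading (horizontal axis, loaded minus unloaded tibiae of vehicle-treated mice) for every tested member of 20 marker lists, with the number tested in parentheses. Filled circles are genes at an unadjusted p under 0.05, diamonds are genes whose groups do not overlap, and black bars are list medians; the osteoclast, cartilage and periosteum lists have medians of 0.60, 0.72 and 0.47 and the muscle list of -1.14.

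Osteoclast genes were higher in loaded tibiae. Of 16 members tested, 15 had a log2FC above 0, against 49.7% of all genes, and the median log2FC was 0.60. An unadjusted p under 0.05 was reached by 13, all higher, and the groups did not overlap for 4, namely Ctsk, Mmp9, Tnfrsf11a and Slc9b2. Summed over the list, the level was 1041 to 1466 CPM in unloaded and 1692 to 2276 CPM in loaded tibiae, and these ranges did not overlap.

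Ctsk (ENSMUSG00000028111.4, chromosome 3, 95499256 to 95509362, GRCm38) encodes cathepsin K, the protease with which osteoclasts degrade bone collagen. It measured 213, 175, 161, 220 and 195 CPM in the unloaded tibiae and 420, 294, 312, 515 and 332 CPM in the loaded tibiae. Every loaded library lay above every unloaded one, and the fold change was 1.94 (log2FC 0.96, standard error 0.16, edgeR adjusted p = 0.123, DESeq2 adjusted p = 2.07e-05). Slc9b2 (chromosome 3, 135307700 to 135345387), a sodium/proton antiporter that accumulates during osteoclast differentiation, measured 8.75, 6.68, 7.22, 9.10 and 7.48 CPM without load and 21.98, 13.998, 15.9, 18.4 and 16.9 CPM with load. The groups were well apart, with a log2FC of 1.15 ± 0.15 (SE), an edgeR adjusted p of 0.078 and a DESeq2 adjusted p of 5.43e-07.

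Tnfrsf11a (chromosome 1, 105780718 to 105847981) encodes RANK, the receptor through which RANKL drives osteoclast formation. Its values were 11.3, 9.82, 9.26, 9.93 and 12.05 CPM in unloaded and 21.7, 14.4, 14.9, 16.4 and 17.8 CPM in loaded tibiae, a log2FC of 0.70 ± 0.14 (SE, edgeR adjusted p = 0.179, DESeq2 adjusted p = 0.00969). Mmp9, a gelatinase of osteoclasts, ran from 223 to 412 CPM without load and from 416 to 526.3 CPM with load, so that the groups were separated by a narrow gap. The other members overlapped. Acp5, tartrate-resistant acid phosphatase, had a log2FC of 0.70 ± 0.26 (SE, edgeR adjusted p = 0.439), and its loaded values of 263, 212, 257, 535 and 208 CPM were led by replicate 5, without which the log2FC was 0.39.

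Among the remaining members, the fusion genes Dcstamp and Ocstamp had log2FCs of 0.71 and 0.62. The acid-secretion genes Atp6v0d2, Tcirg1 and Clcn7 had log2FCs of 0.62, 0.44 and 0.28. Nfatc1, the transcription factor that directs osteoclast differentiation, had a log2FC of 0.31. Calcr, the calcitonin receptor, was near the limit of detection (at most 1.89 CPM) and had a log2FC of -0.05. Csf1r, the receptor for the macrophage growth factor that osteoclast precursors need, was placed in the macrophage list. It also did not overlap between the groups, at 102, 75.1, 124, 122 and 123 CPM without load and 147, 135, 137, 172 and 146 CPM with load (log2FC 0.43 ± 0.14, SE, edgeR adjusted p = 0.387).

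**Figure D2:**
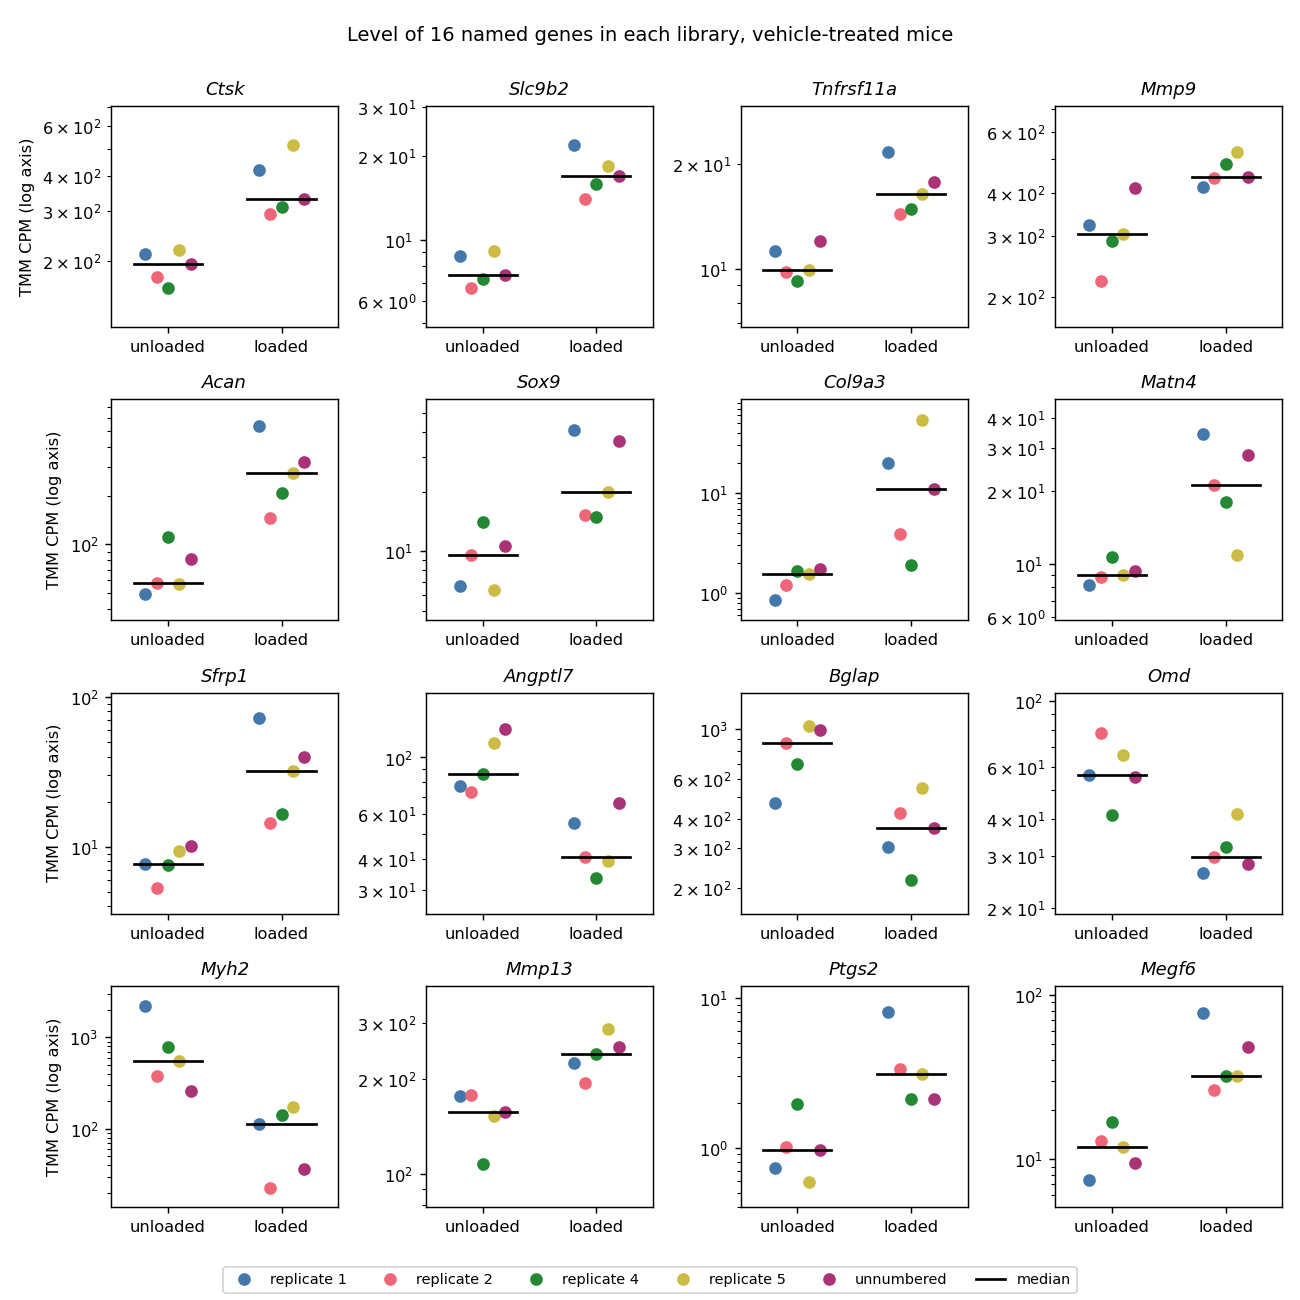
Level of 16 genes in each of the 10 libraries (vertical log axes, CPM after TMM scaling), with 5 unloaded and 5 loaded tibiae per panel, colours for the replicate number and black bars for group medians. Loaded and unloaded points do not overlap in any panel except Bglap and Omd, and loaded replicate 1 or 5 is the highest library for Acan, Col9a3, Sfrp1 and Ptgs2.

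Cartilage genes fell into separate sets. Of 26 list members, 20 passed the filter on low counts, 13 of these had a log2FC above 0, and the median log2FC was 0.72. There were 9 higher and 3 lower genes at an unadjusted p under 0.05, and the groups did not overlap for Acan, Sox9, Col9a3 and Matn4, all higher. The number of lower genes at that p was 1 without loaded replicate 4, unloaded replicate 2 or either unnumbered library. The 6 others (Matn1, Matn3, Ucma, Snorc, Epyc and Mia) were too low to be tested. Col9a3 and Cnmd were tested but were themselves low without load, at most 1.75 and 2.01 CPM, so that the filter favoured members that were high in the loaded group. Without Cnmd, Col9a1, Col9a2 and Col9a3, which stayed under 5 CPM in every unloaded library, the median over 16 members was 0.33, with 5 higher and 3 lower at an unadjusted p under 0.05. This count was added after seeing the data.

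Acan (ENSMUSG00000030607.7, chromosome 7, 79053483 to 79115099) encodes aggrecan, the main proteoglycan of cartilage. It measured 49.8, 58.0, 111, 57.3 and 81.5 CPM without load and 535, 146, 206, 274 and 323 CPM with load. The lowest loaded library exceeded the highest unloaded library, and the log2FC was 2.05 ± 0.33 (SE, edgeR adjusted p = 0.121, DESeq2 adjusted p = 5.43e-07). Sox9 (chromosome 11, 112782224 to 112787760), the transcription factor that sets the chondrocyte program and acts on the aggrecan and collagen genes, measured 6.68, 9.62, 13.98, 6.38 and 10.6 CPM against 41.0, 15.2, 14.9, 19.9 and 36.1 CPM. Its nearest libraries, replicate 4 of either limb, were close to each other, and the log2FC was 1.42 ± 0.32 (SE, edgeR adjusted p = 0.229, DESeq2 adjusted p = 0.00608). Matn4, a matrilin that bridges matrix fibrils, had narrow unloaded values, at 8.14, 8.81, 10.6, 8.98 and 9.33 CPM without load and 34.2, 21.04, 17.9, 10.9 and 27.99 CPM with load (log2FC 1.29 ± 0.25, SE, edgeR adjusted p = 0.179).

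Type IX collagen decorates cartilage fibrils, and its chains were measured with a wide spread. Col9a3 (chromosome 2, 180597790 to 180622189) measured 0.851, 1.22, 1.67, 1.54 and 1.75 CPM in unloaded and 20.04, 3.86, 1.90, 54.2 and 11.02 CPM in loaded tibiae, a log2FC of 3.66 ± 0.79 (SE, edgeR adjusted p = 0.220). Loaded replicate 4 was thus barely above the unloaded range, and replicate 5 was far above it. Col9a1 and Col9a2 had the same order of loaded libraries, with log2FCs of 3.85 and 2.73, and so did Cnmd (chondromodulin, log2FC 3.58) and Col10a1 (type X collagen of hypertrophic chondrocytes, log2FC 2.24). For Col10a1 the loaded values were 20.6, 7.99, 4.48, 81.8 and 14.4 CPM, and the unloaded values ran from 4.07 to 6.70 CPM. Acan and Sox9 were highest in loaded replicate 1, whereas the type IX and X collagens were highest in loaded replicate 5.

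Col2a1, the main cartilage collagen, measured 174, 303, 413, 381 and 657 CPM without load and 811, 349, 288, 1517 and 499 CPM with load. Its loaded libraries had the same order as those of Col9a3, but its groups overlapped, with a log2FC of 0.85 ± 0.45 (SE, edgeR adjusted p = 0.541) that was 0.35 without loaded replicate 5. Other members had log2FCs below 0. Chad, which encodes chondroadherin, had a log2FC of -0.94 ± 0.28 (SE, edgeR adjusted p = 0.359), at 151, 162, 109, 140 and 202 CPM without load and 84.2, 30.6, 76.2, 123 and 84.2 CPM with load. Cytl1 and Ihh, a cytokine-like chondrocyte product and the hedgehog ligand of prehypertrophic chondrocytes, had log2FCs of -1.12 and -0.69. Col11a1 and Col11a2, which osteoblasts also express, had log2FCs of -0.33 and -0.48. Summed over the list, the cartilage level was 2187 to 6505 CPM without load and 3385 to 5077 CPM with load, so that the list as a whole overlapped.

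RefSeq promoter windows (GRCm38.p6, 250 bases before to 50 after the start site) were searched for the Sox half-sites ACAATG and ACAAAG on both strands, because Sox9 and several cartilage genes were higher together. Of 26 list members, 20 had a window (all but Col2a1, Sox9, Col9a3, Comp, Snorc and Prg4), and 4 of these 20 (20%) held a match, against 31.7% of 27025 genes with a window. The windows of Acan (chr7:79052976-79053275, plus strand) and Col10a1 (chr10:34389731-34390030, plus strand) are shown as a member without and a member with a match, which is in capitals.
Acan: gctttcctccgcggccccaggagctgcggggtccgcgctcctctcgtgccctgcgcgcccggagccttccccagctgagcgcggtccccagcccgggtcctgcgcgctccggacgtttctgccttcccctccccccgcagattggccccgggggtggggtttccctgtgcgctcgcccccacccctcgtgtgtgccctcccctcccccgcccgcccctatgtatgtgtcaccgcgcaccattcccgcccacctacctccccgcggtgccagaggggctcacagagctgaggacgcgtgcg
Col10a1: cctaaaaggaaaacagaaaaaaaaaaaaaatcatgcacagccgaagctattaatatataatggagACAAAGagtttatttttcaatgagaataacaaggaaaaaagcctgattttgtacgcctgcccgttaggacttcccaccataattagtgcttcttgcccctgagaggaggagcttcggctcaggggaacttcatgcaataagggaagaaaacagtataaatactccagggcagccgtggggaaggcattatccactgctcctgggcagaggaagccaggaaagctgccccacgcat
The match in Col10a1 starts at base 66 of the window. The share in the list is a description of these letters only.

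Genes of the periosteum and tendon were on balance higher, with exceptions. Of 28 members tested, 20 had a log2FC above 0 and the median log2FC was 0.47. An unadjusted p under 0.05 was reached by 10 higher and 3 lower genes. The groups did not overlap for Sfrp1, which was higher, and for Angptl7, Gli1 and Chodl, which were lower. The summed level was 3765 to 4537 CPM in 4 unloaded libraries and 7975 CPM in unloaded replicate 4, against 5441 to 9998 CPM in the loaded libraries.

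Sfrp1 (ENSMUSG00000031548.7, chromosome 8, 23411502 to 23449632) encodes a secreted antagonist that binds Wnt ligands. It measured 7.66, 5.27, 7.59, 9.34 and 10.1 CPM without load and 72.1, 14.4, 16.4, 31.9 and 39.8 CPM with load. All loaded libraries were above all unloaded ones, with a log2FC of 2.13 ± 0.40 (SE, edgeR adjusted p = 0.170, DESeq2 adjusted p = 3.30e-05). The related Sfrp2 measured 15.4, 17.1, 25.6, 28.7 and 14.9 CPM without load and 170, 57.4, 24.7, 80.6 and 82.8 CPM with load. Its loaded replicate 4 fell inside the unloaded range, and the log2FC was 2.03 ± 0.41 (SE, edgeR adjusted p = 0.179, DESeq2 adjusted p = 0.00650).

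Col14a1, a collagen of fibrous tissue, measured 25.5, 21.1, 111, 34.2 and 25.6 CPM without load and 280, 85.7, 73.5, 104 and 176 CPM with load. Unloaded replicate 4 lay among the loaded libraries, and the log2FC was 1.72 ± 0.50 (SE, edgeR adjusted p = 0.340). The same library was the highest unloaded one for Postn, C1qtnf3, Dpt and Mfap5, at 1830, 124, 39.7 and 24.2 CPM. Tnmd, Kera and Thbs4, genes of tendon and fibrous matrix, had log2FCs of 1.34, 1.45 and 0.69. Tnc and Col12a1, which fibroblasts under tension are known to express, had log2FCs of 0.44 and 0.62. Without unloaded replicate 4, the number of list members at an unadjusted p under 0.05 and higher was 18 instead of 10, and the list median was 0.73. Without loaded replicate 1 it was 8, and the list median was 0.22.

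The 3 members that separated in the other direction have other roles. Angptl7 (chromosome 4, 148495183 to 148500460), an angiopoietin-like secreted protein, measured 77.3, 73.2, 86.5, 114 and 129 CPM without load and 55.2, 40.6, 33.7, 39.2 and 66.4 CPM with load (log2FC -1.03 ± 0.21, SE, edgeR adjusted p = 0.182). Gli1, a transcription factor and readout of hedgehog signalling, ran from 7.32 to 13.1 CPM without load and from 5.32 to 6.95 CPM with load. Chodl, a C-type lectin-domain protein, ran from 2.96 to 7.66 CPM and from 1.202 to 2.42 CPM. Ostn, which encodes the bone peptide osteocrin and is named by the study, measured 21.8 ± 6.49 CPM without load and 18.3 ± 2.27 CPM with load (SD, n = 5 each), a difference that edgeR did not call (adjusted p = 0.620). The study also names Smoc1, a secreted calcium-binding protein, which did not overlap at 10.2, 4.86, 9.45, 9.10 and 9.72 CPM against 54.6, 12.2, 14.2, 11.9 and 30.1 CPM (log2FC 1.52 ± 0.42, SE, edgeR adjusted p = 0.316), and the log2FC was 1.002 without loaded replicate 1.

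Of 18 osteoblast members tested, 16 had a log2FC below 0, against 50.3% of all genes, and the median log2FC was -0.28. Of these, 7 had an unadjusted p under 0.05, all lower, and no member's groups were fully apart. The median was -0.12, with 5 lower members at that p, without the unnumbered unloaded library, and -0.43, with 9, without unloaded replicate 1.

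Bglap (ENSMUSG00000074483.2, chromosome 3, 88383501 to 88384464) measured 470, 866, 698, 1025 and 983 CPM without load and 303, 424, 216, 549 and 365 CPM with load. Only unloaded replicate 1 lay inside the loaded range, and the log2FC was -1.12 ± 0.26 (SE, edgeR adjusted p = 0.229, DESeq2 adjusted p = 0.00727). Its near-identical neighbour Bglap2 had a log2FC of -1.41 ± 0.34 (SE, edgeR adjusted p = 0.235), and reads of these copies may have been divided between them by the counting. Omd (chromosome 13, 49582462 to 49592822), osteomodulin, a small proteoglycan of mineralizing matrix, measured 56.0, 77.7, 41.0, 65.8 and 55.5 CPM without load and 26.2, 29.6, 32.1, 41.6 and 28.1 CPM with load. The groups met at a single pair, unloaded replicate 4 and loaded replicate 5, and the log2FC was -0.91 ± 0.17 (SE, edgeR adjusted p = 0.170, DESeq2 adjusted p = 0.000840).

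The other members at an unadjusted p under 0.05 were Smpd3, Ifitm5, Sp7 and Alpl, with log2FCs of -0.88, -0.68, -0.44 and -0.38. They encode a sphingomyelinase needed for mineralization, a membrane protein of osteoblasts, the osterix transcription factor and alkaline phosphatase. Runx2, the master regulator of the lineage, had a log2FC of -0.10, and Ibsp (bone sialoprotein) of -0.02. Col1a1 ran from 24680 to 83038 CPM without load and from 35880 to 53622 CPM with load, with a log2FC of -0.24 ± 0.31 (SE in the same fit). Its lowest and highest values were both unloaded libraries, replicate 1 and the unnumbered library.

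Of 11 osteocyte members tested, 9 had a log2FC below 0, the median log2FC was -0.24, and the groups overlapped for all 11. The median was -0.37, with 5 lower members at an unadjusted p under 0.05, without loaded replicate 2, and -0.15, with 1, without the unnumbered unloaded library. Mepe, a mineralization-related osteocyte gene, was lower (log2FC -0.52 ± 0.21, SE, edgeR adjusted p = 0.472) and Pdpn, an early osteocyte gene that other cells also express, was higher (log2FC 0.48 ± 0.20, SE, edgeR adjusted p = 0.483) at an unadjusted p under 0.05. Sost, which encodes the Wnt inhibitor sclerostin, measured 654, 712, 454, 541 and 767 CPM without load and 443, 749, 560, 426 and 399 CPM with load, with a log2FC of -0.28. Loaded replicates 2 and 4 lay within the unloaded range. Dmp1 measured 713 ± 157 CPM and 602 ± 133 CPM (SD, n = 5 each). Piezo1, the mechanosensitive channel that the study is about, measured 121, 121, 168, 119 and 166 CPM without load and 196, 165, 149, 128 and 197 CPM with load. The groups overlapped, and the log2FC was 0.26 ± 0.15 (SE, edgeR adjusted p = 0.570).

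Skeletal muscle genes were lower in loaded tibiae throughout. All 23 members had a log2FC below 0, with a median of -1.14 and a range from -3.11 to -0.29. At an unadjusted p under 0.05 there were 11, and only Myh2 separated the groups. That number was 6 without loaded replicate 2, loaded replicate 4, the unnumbered loaded library or unloaded replicate 1, 7 without unloaded replicate 4 or 5, and 19 without loaded replicate 5 or the unnumbered unloaded library. Summed over the list, the level was 112188, 43455, 74305, 84399 and 20482 CPM without load and 44350, 9983, 16605, 54765 and 26306 CPM with load. The ranges overlapped, because the unnumbered unloaded library was low and loaded replicates 1 and 5 were high.

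Myh2 (ENSMUSG00000033196.17, chromosome 11, 67171027 to 67197517), the myosin of oxidative fast fibres, measured 2224, 379, 791, 553 and 259 CPM without load and 113, 22.6, 142, 175 and 36.3 CPM with load. The log2FC was -3.11 ± 0.68 (SE, edgeR adjusted p = 0.220, DESeq2 adjusted p = 0.0121). Myh4, the myosin of the fastest fibres and the most abundant myosin here, had a log2FC of -0.95, Myh1 of -1.76 and Myh7, the slow-fibre myosin, of -1.30. The muscle genes thus had unequal log2FCs. Because muscle made up such a large and variable part of the RNA, the comparison was also fitted with the log2 muscle level as a covariate, a setting chosen after seeing the data.

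With this covariate, 1127 genes (6.27%) had an unadjusted p under 0.05, 579 higher (3.22%) and 548 lower (3.05%), and 5 genes passed an adjusted p of 0.05, namely Cnmd, Ctsk, Chl1, Slc9b2 and Ccdc194. The median log2FC was 0.62 for the osteoclast list, 0.77 for the cartilage list, 0.69 for the periosteum and tendon list, -0.45 for the osteoblast list and -0.42 for the osteocyte list. The number of osteocyte genes lower at an unadjusted p under 0.05 was 6 instead of 1. The number of osteoclast genes higher at that p was 9 instead of 13. The osteocyte genes lower at that p included Ptprz1, Irx5, Dmp1 and Sost, with log2FCs of -0.68, -0.60, -0.56 and -0.60. The muscle level differed between the groups, so that the covariate and loading share part of their variation.

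**Figure D3:**
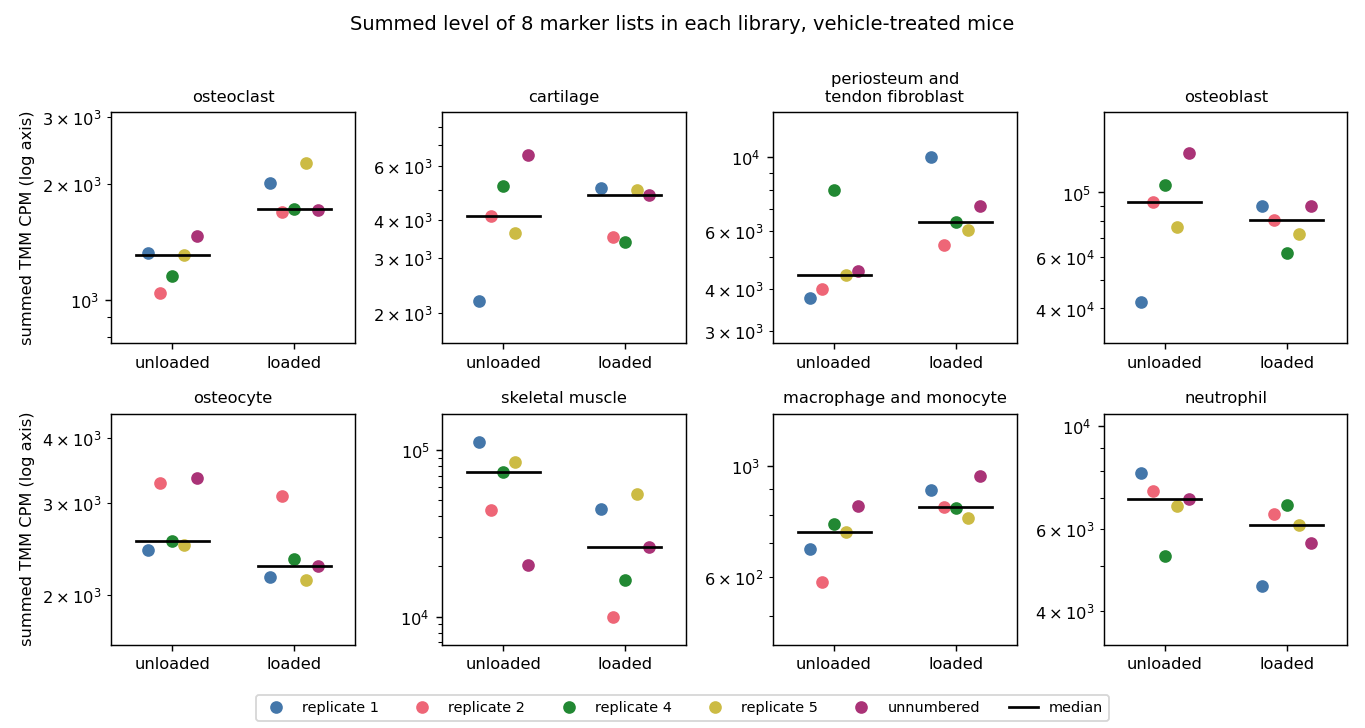
Summed level of 8 marker lists in each of the 10 libraries (vertical log axes, CPM after TMM scaling), with colours for the replicate number and black bars for group medians. Only the osteoclast panel has no overlap, at 1041 to 1466 CPM unloaded and 1692 to 2276 CPM loaded, and muscle ranges from 9983 to 112188 CPM over all libraries.

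Neutrophil (18 tested), B lineage (17), erythroid (19), T and NK cell (9), megakaryocyte (7), adipocyte (10) and marrow stroma (7) genes had median log2FCs of -0.10, 0.14, -0.003, -0.09, -0.02, -0.03 and 0.08, and no member of these lists separated the groups. Single libraries moved these medians. Without loaded replicate 1 they were -0.0207 for neutrophil, 0.25 for B lineage, 0.15 for erythroid, -0.15 for megakaryocyte and -0.39 for adipocyte genes. Without unloaded replicate 2 they were 0.0147 for B lineage and -0.26 for T and NK cell genes, without unloaded replicate 4 -0.10 for erythroid and 0.0302 for marrow stroma genes, and without loaded replicate 4 -0.16 for neutrophil and 0.13 for marrow stroma genes. Without unloaded replicate 1 they were 0.17 for megakaryocyte and 0.0383 for T and NK cell genes, and without unloaded replicate 5 0.12 for adipocyte genes. At an unadjusted p under 0.05 they held 3 genes in all, Lcn2, Nkg7 and Car3, each lower, against 5.96% of all genes. This tally depended on single libraries, since 4 B lineage and 2 erythroid members were higher at that p without loaded replicate 1, and 5 neutrophil members were lower without unloaded replicate 4. Without loaded replicate 5, 3 neutrophil members were lower, and without the unnumbered unloaded library 3 were lower and 1 higher. S100a8, a member of the neutrophil list, measured 1105, 1570, 411, 1082 and 454 CPM without load and 328, 544, 564, 904 and 392 CPM with load, and these values overlapped. Car3, which muscle also expresses, had a log2FC of -0.83 ± 0.25 (SE, edgeR adjusted p = 0.361).

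Macrophage and monocyte genes had a median log2FC of 0.17 over 14 members. Of these, 4 were higher at an unadjusted p under 0.05, among them Csf1r, Mrc1 and Ccr2. The number was 1 without unloaded replicate 2 or with the muscle covariate, 6 without loaded replicate 5, and 2 without loaded replicate 1, loaded replicate 4, the unnumbered loaded library, unloaded replicate 1 or unloaded replicate 5. Mrc1, the mannose receptor, measured 124 ± 20.1 CPM without load and 153 ± 13.4 CPM with load (SD, n = 5 each, edgeR adjusted p = 0.478). Endothelial genes had a median log2FC of 0.13 over 17 members. Sox18 and Egfl7 were higher at an unadjusted p under 0.05, against 3.90% of all genes. Their log2FCs were 0.57 and 0.36 (edgeR adjusted p = 0.480 and 0.494). No endothelial member had an unadjusted p under 0.05 without loaded replicate 1, the unnumbered loaded library or unloaded replicate 1. Schwann cell genes, 8 tested, had a median of -0.36 and 3 lower members at an unadjusted p under 0.05, among them Mag and S100b, and 0 such members without loaded replicate 2 or with the muscle covariate. Mag was at most 1.05 CPM with load, so that the filter on low counts favoured it through the unloaded group. Of 5 keratinocyte genes 1 was tested, and the list summed to at most 5.16 CPM in any library. Proliferation genes had a log2FC above 0 in 19 of 20 cases, with a median of 0.11, and only Tyms (log2FC 0.34) had an unadjusted p under 0.05. With the muscle covariate the median was -0.0239 and no member had an unadjusted p under 0.05.

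A mixed picture was seen for genes known to take part in the loading response of bone. Of 18 tested, 7 were higher and 5 lower at an unadjusted p under 0.05, and the median log2FC was 0.08. With 1 library left out the median ran from 0.00281 (without unloaded replicate 1) to 0.15 (without the unnumbered unloaded library), and the number of lower members was 3 without unloaded replicate 2. Ptgs2, the inducible cyclooxygenase that makes prostaglandins, was low throughout, at 0.729, 1.01, 1.94, 0.591 and 0.972 CPM without load and 8.08, 3.35, 2.13, 3.11 and 2.11 CPM with load. The groups did not overlap (log2FC 1.81 ± 0.45, SE, edgeR adjusted p = 0.247), and the nearest libraries differed by under 0.2 CPM. Because Ptgs2 was so low without load, the filter on low counts favoured it through the loaded group, as for Col9a3. Mmp13 (chromosome 9, 7272514 to 7283331), a collagenase of osteoblasts and hypertrophic cartilage, measured 176, 178, 107, 153 and 157 CPM without load and 223, 193, 239, 286 and 251 CPM with load (log2FC 0.63 ± 0.15, SE, edgeR adjusted p = 0.229, DESeq2 adjusted p = 0.00707).

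The growth factor Igf1 had a log2FC of 1.02, with loaded values of 310, 123, 102, 128 and 210 CPM against 61.9 to 119 CPM without load, so that loaded replicate 4 lay inside the unloaded range. Piezo2, a sensory mechanosensitive channel, had a log2FC of 1.64 and was highest in loaded replicate 1 and the unnumbered loaded library, at 105 and 81.9 CPM. Csf1, the macrophage growth factor, Timp1, a protease inhibitor, and the chemokine Ccl2 had log2FCs of 0.45, 0.74 and 1.64. The Wnt ligands Wnt1 and Wnt16 had log2FCs of -0.58 and -0.60, and Vegfa of -0.26. With 1 library left out, that of Wnt1 ran from -0.72 to -0.37, and 5 of 10 such fits had an unadjusted p under 0.05.

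The RANKL axis showed opposite values for receptor and decoy. Tnfrsf11b, which encodes osteoprotegerin, the decoy that keeps RANKL from RANK, measured 38.2, 66.5, 31.6, 44.7 and 39.1 CPM without load and 24.97, 33.6, 28.4, 30.3 and 29.7 CPM with load. Unloaded replicate 4 alone overlapped the loaded range, and the log2FC was -0.58 ± 0.18 (SE, edgeR adjusted p = 0.361), or -0.38 without unloaded replicate 2. Tnfsf11, which encodes RANKL itself, was at 1.82 to 5.09 CPM in all libraries and had a log2FC of -0.02. Hes1, the Notch target that the study follows up, measured 11.9, 12.7, 8.15, 8.98 and 6.70 CPM without load and 6.38, 5.75, 4.81, 9.32 and 5.96 CPM with load (log2FC -0.59 ± 0.22, SE, edgeR adjusted p = 0.440). With the muscle covariate its log2FC was -0.33.

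Immediate early genes, which respond within minutes to hours, were divided as well. The study places the freezing of these tibiae 4 hours after the final loading. Of 21 tested, Fosl1, Fosl2, Junb and Zfp36 were higher and Nr4a1 and Klf4 lower at an unadjusted p under 0.05. The shares of all genes at that p were 3.90% higher and 5.96% lower. The median log2FC of the list was -0.04. With 1 library left out the median ran from -0.0769 (without unloaded replicate 5) to 0.0679 (without unloaded replicate 4). The number of lower members was 4 without unloaded replicate 5 and 1 without loaded replicate 1, loaded replicate 4, unloaded replicate 4 or the unnumbered unloaded library. Fosl2, an AP-1 subunit with roles in bone cells, measured 84.9, 83.7, 119, 80.3 and 116 CPM without load and 173, 136, 134, 118 and 152 CPM with load (log2FC 0.56 ± 0.15, SE, edgeR adjusted p = 0.286). Fos and Egr1 had log2FCs of 0.17 and -0.12, and that of Fos ran from 0.0757 to 0.28 with 1 library left out. Of 5 glucocorticoid-induced genes, Zbtb16 was lower (log2FC -0.68 ± 0.20, SE, edgeR adjusted p = 0.341), and Fkbp5 and Per1 had log2FCs of 0.08 and -0.01.

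Outside the lists, the genes with the lowest p among those that separated were as follows. Megf6 (chromosome 4, 154170730 to 154275713), a secreted protein with EGF-like repeats, measured 7.41, 12.9, 16.9, 11.8 and 9.42 CPM without load and 77.2, 26.5, 32.0, 32.3 and 48.0 CPM with load (log2FC 1.88 ± 0.30, SE, edgeR adjusted p = 0.121, DESeq2 adjusted p = 2.06e-06). Ptx3, a soluble pattern-recognition protein, and Mmp3, stromelysin, had log2FCs of 1.58 ± 0.27 and 2.20 ± 0.42 (SE), and Mmp3 ran from 0.486 to 2.50 CPM without load and from 3.44 to 11.5 CPM with load. Ggt5, a gamma-glutamyltransferase, differed less but with little spread, at 10.52 to 12.3 CPM against 16.1 to 20.3 CPM.

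Slc9a2 (chromosome 1, 40680574 to 40769273), a sodium/proton exchanger, measured 14.6, 22.4, 22.04, 20.3 and 16.6 CPM without load and 6.95, 9.70, 8.84, 10.0 and 6.04 CPM with load (log2FC -1.21 ± 0.18, SE, edgeR adjusted p = 0.121, DESeq2 adjusted p = 5.08e-06). Tmtc1 (chromosome 6, 148232430 to 148444389), a mannosyltransferase of the endoplasmic reticulum, had a log2FC of -0.78 ± 0.12 (SE, edgeR adjusted p = 0.121). The transcription factor gene Creb3l3, the axon-guidance gene Sema3e and the potassium channel gene Kcnc1 had log2FCs of -1.59, -0.98 and -1.22. Tdrp, Abca8a and Sorbs2 had log2FCs of -1.07, -0.67 and -0.56. With the muscle covariate, the log2FCs of Kcnc1 and Tmtc1 were -0.93 and -0.58, and that of Slc9a2 was -1.26.

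Whether DEX-treated mice responded differently was tested with an interaction term on 23653 genes of 19 libraries, leaving out unloaded DEX replicate 4. The study removed a DEX-4 library, and its text does not name the limb. The supplementary figure that it cites for this could not be read here. The edgeR test called no gene at an adjusted p of 0.05 (0% called; lowest adjusted p 0.211), and 12.1% of genes (2859) had an unadjusted p under 0.05. DESeq2 called 43 of 30593 genes (0.141%), 4 of them with a lower log2FC under DEX (0.0131%), and the list members among these were Acan, Col9a3 and Sfrp1. In DEX-treated mice alone, loading gave an unadjusted p under 0.05 for 4.25% of 22541 genes, and for 3.67% in the higher direction. The osteoclast list had a median log2FC of 0.60 in vehicle-treated and -0.12 in DEX-treated mice, and the interaction was below 0 (a lower log2FC under DEX than under vehicle) for all 16 members, against 45.8% of all genes and 10214 of the 17982 genes tested under vehicle. For 9 of the 16 it was below 0 at an unadjusted p under 0.05, against 3.17% of all genes. Acan had a log2FC of 2.05 ± 0.33 under vehicle and -0.22 ± 0.29 under DEX (SE, interaction adjusted p = 0.211), and Col9a3, which was low in unloaded vehicle tibiae, of 3.66 ± 0.79 and -1.15 ± 0.51 (SE, interaction adjusted p = 0.211). Among the 16 cartilage members that reached 5 CPM in an unloaded vehicle library, 11 had an interaction below 0, 5 of them at an unadjusted p under 0.05.

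The osteoblast list had a median log2FC of -0.28 under vehicle and -0.62 under DEX (-0.34 with loaded instead of unloaded DEX replicate 4 left out), and 16 of 18 members had an interaction below 0, none at an unadjusted p under 0.05. Bglap had a log2FC of -1.12 ± 0.26 under vehicle and -1.65 ± 0.67 under DEX (SE, interaction adjusted p = 0.717), and Bglap2 of -1.41 ± 0.34 and -1.28 ± 0.60 (SE, interaction adjusted p = 0.945). These p-values do not show that the responses were alike. Interactions were also below 0 for 20 of 20 proliferation members (4 at an unadjusted p under 0.05) and 18 of 19 erythroid members (0). The same held for 13 of 14 macrophage and monocyte members (4), 15 of 20 cartilage members (9), 22 of 28 periosteum and tendon members (4, and 1 above 0 at that p), 15 of 17 B lineage members (1) and 10 of 11 osteocyte members (0). In the T and NK cell and Schwann cell lists, 3 of 9 and 1 of 8 members were below 0. The muscle list went from a median of -1.14 under vehicle to 1.06 under DEX, and 20 of its 23 members had an unadjusted interaction p under 0.05. Loaded DEX replicate 4, which this test kept, had the lowest total of all libraries (4641437 counts) and the highest olfactory and vomeronasal receptor level (8611 CPM), against 8436133 counts and 1572 CPM in unloaded DEX replicate 4. With loaded instead of unloaded DEX replicate 4 left out, a setting chosen after seeing the data, the interaction again called no gene (lowest adjusted p 0.191, 2208 genes at an unadjusted p under 0.05). It was then below 0 for 16 of 16 osteoclast members (median interaction -0.56, 8 at an unadjusted p under 0.05) and 12 of 18 osteoblast members (median -0.0755 instead of -0.34), against 47.7% of all genes. The numbers were 13 of 14 for macrophage and monocyte, 16 of 20 for cartilage, 19 of 20 for proliferation, 13 of 19 for erythroid and 5 of 11 for osteocyte members, and the osteoclast median log2FC under DEX was -0.0328 instead of -0.12. With both left out it called no gene (lowest adjusted p 0.378, 1802 genes at an unadjusted p under 0.05). The osteoclast median interaction was then -0.59, the osteoblast one -0.22 and the muscle one 2.34. At an unadjusted p under 0.05, without the loaded library, 3 periosteum and tendon members were below 0 and 3 above. Without both DEX libraries numbered 4, it was 1 and 1. Of the proliferation members, 3 were below 0 at that p without the loaded library, 2 without both and 9 with all 20 libraries. Acan had an interaction of -2.08 without the loaded library and of -2.15 without both, against -2.28 as reported. In DEX-treated mice alone, without the loaded library, the log2FC was -0.0166 for Acan and -0.74 for Col9a3.

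Background reads were also more abundant in the DEX libraries, whose olfactory and vomeronasal receptor genes summed to 789 to 8611 CPM, and the part of muscle and of background reads in the interaction was not tested.

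**Figure D4:**
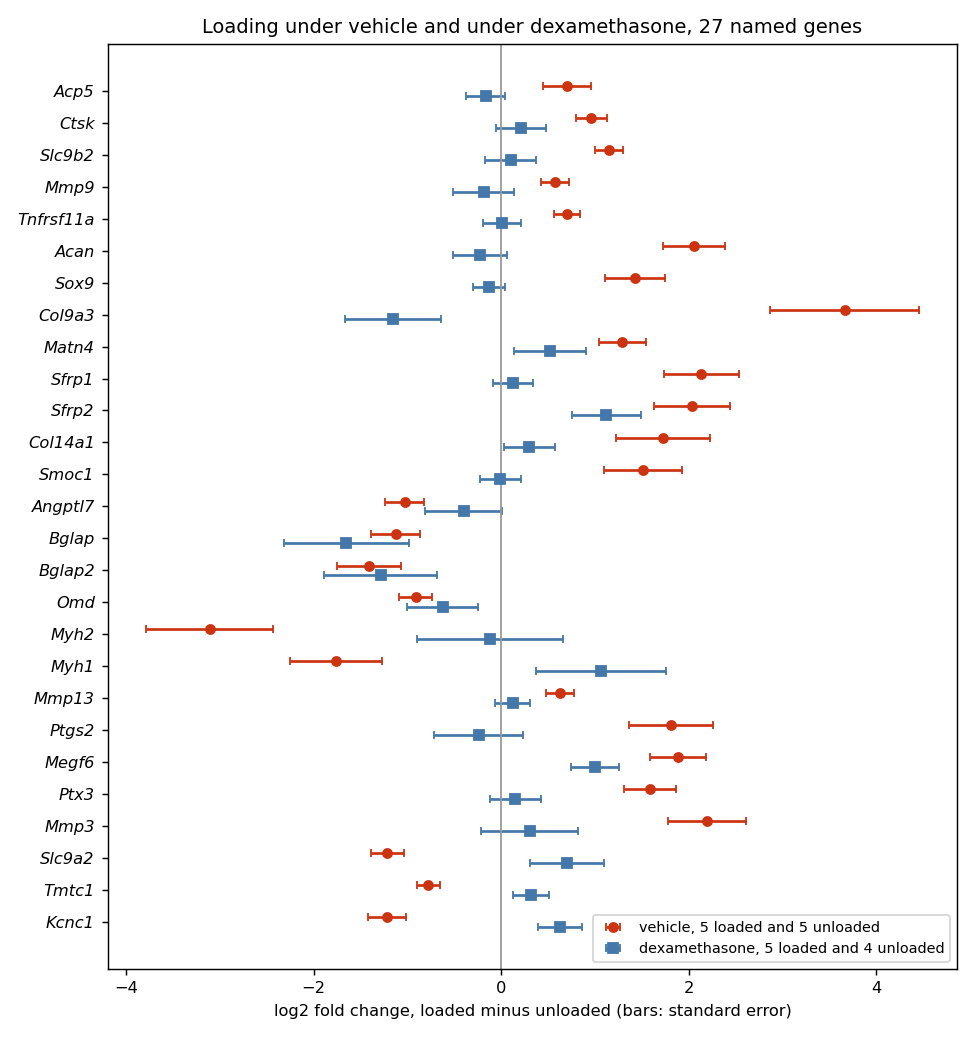
Log2 fold change with loading (horizontal axis; bars are standard errors) for 27 named genes in vehicle-treated mice (circles, 5 loaded and 5 unloaded libraries) and DEX-treated mice (squares, 5 loaded and 4 unloaded libraries). Acan lies at 2.05 and -0.22 and Myh1 at -1.76 and 1.06, whereas Bglap2 lies at -1.41 and -1.28.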

How the data were processed

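Total RNA of tibiae was sequenced from stranded pico-input libraries. The authors deposited RSEM 1.2.28 expected counts per gene from STAR 2.7.10a alignments to GRCm38, not scaled for library size, of which 10.6% to 11.8% per vehicle library were fractional and were rounded for the tests. In R 4.3.3, edgeR 4.0.16 was run with filterByExpr, TMM and its quasi-likelihood F test with Benjamini-Hochberg adjustment at 0.05, and DESeq2 1.42.0 as an alternative. The code was tested on simulated data. Standard errors are the absolute log2FC over the square root of F. Positions follow GENCODE M21.

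The 21 marker lists and the members were chosen with earlier results of these data known, and the study chose some of its genes on these samples. In each list the first gene, the 2 others with the lowest p and every member without overlap were named, with 8 higher and 8 lower non-overlapping genes of at least 5 CPM and 11 genes of the study; others were named after their values were seen, and a few genes are not reported here by name. In each vehicle group 1 library matches no label number and is called unnumbered. Both carry a 6 in the deposited counts, which no label has. The labels of each vehicle group also hold a replicate 3, a number that no vehicle library carries in the deposited counts. Both limbs came from the same mice, but no source says that a number marks a mouse. Alternatives were other scalings and filters, robust estimation, all 4 groups together, a replicate block, each library left out and, chosen after seeing the data, a muscle covariate, a block with number 6, other choices of DEX-4 library and a cartilage count without members under 5 CPM in every unloaded library. Totals limit precision through counting error only, and p-values cover the spread between these libraries.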

Additional observations from a re-analysis of the deposited data

Results flagged for a closer look

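Each named gene and each summed marker list was examined, within the 5 libraries of a group, for a library lying far from the other 4 relative to the group's whole range (Dixon's critical value 0.71). This marked 20 of 208 values, and chance marks about 1 in 20 groups. Levels are CPM after TMM scaling.

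Loaded replicate 1 held 5 of them. It was the highest loaded library for Postn, a periosteal matrix gene, at 1814 (others 790 to 1044), for Ptgs2 at 8.08 (2.11 to 3.35) and for Ptx3 at 20.5 (7.496 to 10.9). Its summed megakaryocyte level was 596 (352 to 402), and Lcn2, a neutrophil granule gene, was low there at 272 (412 to 468). Loaded replicate 5 was high for Acp5 at 535 (208 to 263) and low for Cd3e, a T cell receptor subunit, at 1.67 (2.80 to 3.23). Loaded replicate 2 had a summed osteocyte level of 3098 (2134 to 2344), loaded replicate 4 an Adgre1 level of 44.1 (32.0 to 34.8), and the unnumbered loaded library an Fkbp5 level of 100.3 (52.5 to 64.0).

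Unloaded replicate 4 was high for Postn at 1830 (435 to 589), for Col14a1 at 111 (21.1 to 34.2) and for the summed periosteum and tendon markers at 7975 (3765 to 4537). Unloaded replicate 1 was high for Myh2 at 2224 (259 to 791) and Chodl at 7.66 (2.96 to 4.15), and low for Fosl1 at 1.09 (1.75 to 2.01) and Creb3l3 at 2.55 (5.63 to 6.28). Unloaded replicate 2 was low for Smoc1 at 4.86 (9.10 to 10.2) and for the summed endothelial markers at 616 (809 to 883), and high for Ostn at 33.2 (17.2 to 20.2).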

How the results depend on the processing

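The number of genes past an adjusted p of 0.05 was 0 in edgeR as reported (1773 at an unadjusted p under 0.05) and depended on the processing. It was 126 with DESeq2, 50 without a filter on low counts, 4 with all 4 groups in the same model (Ptx3, Acan, Sfrp1 and Megf6) and 5 with the muscle covariate. With each library left out in turn it ran from 0 to 4, with 4 genes without loaded replicate 5 (Matn4, Cyp2e1, Asb12 and Tdrp), 2 (Popdc2 and Tmtc1) when the unnumbered unloaded library was left out and 1 without unloaded replicate 1 (Creb3l3). DESeq2 size factors, a minimum of 10 counts and robust estimation gave 0. Genes without overlap numbered 327 to 780 with 1 library left out, since fewer libraries have to be separated, with 780 without the unnumbered unloaded library, 676 without loaded replicate 5 and 568 without unloaded replicate 4. The interaction had 43 genes with DESeq2. The interaction called 0 genes with all 20 libraries, without loaded DEX replicate 4 and without both DEX libraries numbered 4. For the 20 lists with at least 3 tested genes, DESeq2 size factors, the replicate blocks, the muscle covariate and each library left out moved the median log2FC by less than its spread between replicates, except for the muscle list with the covariate made from its own level (-1.14 to -0.0122). With the muscle covariate the median changed sign for proliferation (0.11 to -0.0239), B lineage (0.14 to -0.0448), loading signals (0.08 to -0.0390), adipocyte (-0.03 to 0.18), megakaryocyte (-0.02 to 0.15) and immediate early genes (-0.04 to 0.0484). The keratinocyte list was not run.

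Among 83 named genes, 30 passed the adjusted threshold under at least 1 alternative. A change of sign was seen for 7 genes, none called, whose log2FCs as reported ran from -0.66 (Retn) to 0.27 (Tspan33). With the muscle covariate the log2FCs were 0.0150 for Vpreb3, -0.0251 for Tspan33, 0.14 for Adipoq, 0.0398 for Retn, -0.0230 for Mki67 and -0.00736 for Fkbp5, and without a filter 0.0184 for Cd3e. With libraries left out they ran from -0.12 to 0.10 for Cd3e, from -0.24 to 0.0708 for Adipoq and from -0.11 to 0.27 for Fkbp5. The cause of these changes was not tested.

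The replicate number as a block could be used for 8 numbered libraries and gave 0 genes (1982 of 18182 at an unadjusted p under 0.05, lowest adjusted p 0.0824), as did the same libraries without pairing (2018). Same-numbered limbs correlated at -0.17, -0.05, -0.15 and 0.16 for numbers 1, 2, 4 and 5 after removal of group means, and no loaded library correlated best with its own number, so the numbers were not used as pairs. With this block the list medians were -0.11 for osteoblast and -0.13 for osteocyte genes, and at an unadjusted p under 0.05 there were 6 higher periosteum and tendon genes, 2 higher macrophage genes, 21 lower muscle genes, and 3 higher and 2 lower loading signals (median 0.21). Both unnumbered libraries carry a 6 in the deposited counts, which no label gives. Taken as a further pair, a setting chosen after seeing the data, they raised the count to 5 genes (Slc9a2, Smtnl1, Ptx3, Slc9b2 and Kcnc1), with correlations of -0.14, -0.0998, -0.22, 0.33 and 0.29 for numbers 1, 2, 4, 5 and 6.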

Other observations

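Genes outside the marker lists whose groups did not overlap are described here; they were chosen after their values were seen, and no set was tested. Several encode lysosomal or acid-handling proteins and were higher with loading. Arsb, a lysosomal sulfatase, ran from 63.3 to 89.0 CPM without load and from 102 to 142 CPM with load (log2FC 0.54, edgeR adjusted p = 0.229). Glb1, Gusb, Ctsz and Cd68 had log2FCs of 0.46, 0.41, 0.32 and 0.37. Atp6v1a, a subunit of the vacuolar proton pump, and Slc4a2, an anion exchanger, had log2FCs of 0.43 and 0.43, and Slc37a2, a sugar-phosphate transporter, of 0.74.

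Matrix and secreted-factor genes were also among them. Col27a1, a fibrillar collagen, ran from 29.3 to 65.6 CPM without load and from 75.7 to 157 CPM with load (log2FC 1.12), and Abi3bp, Ccn5, Tgfbi, Tnn and Rspo2 had log2FCs of 0.94, 1.73, 0.92, 1.02 and 1.14. Among the lower genes, Frzb, a secreted Wnt antagonist related to Sfrp1, ran from 6.62 to 15.4 CPM without load and from 3.09 to 5.81 CPM with load (log2FC -1.07, edgeR adjusted p = 0.229), opposite in direction to Sfrp1. The muscle genes Actc1 and Csrp3 had log2FCs of -3.76 and -2.84, and -2.44 and -1.79 with the muscle covariate.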
